A study of Homo sapiens with 6 samples.

Results

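The genes described here are the regulators of p53 MDM2, MDM4 and PPM1D, the homeodomain-interacting protein kinases HIPK1, HIPK2 and HIPK3, the stress-response gene GADD45A and the polo-like kinases PLK2 and PLK3. They comprise 9 of the 19775 genes measured and 41 of the 54613 probe sets that are not controls. A probe set was taken when the array's annotation gave it a single one of these symbols. The family was drawn up around HIPK2 and PLK2 because their intensities differed strongly between the 2 groups of arrays. The differences of HIPK2 and PLK2 are therefore given as a description without a test, and tests are given for the other 7 genes.

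The study hybridised RNA of 3 replicates of 10A/143B cybrids and of 3 replicates of 468/143B cybrids to Affymetrix HG-U133 Plus 2.0 arrays. A cybrid is a cell with the nucleus of one line and the mitochondria of another. The 10A/143B cybrids carried mitochondria of MCF10A, a non-tumorigenic breast epithelial line, and the 468/143B cybrids carried mitochondria of MDA-MB-468, a breast cancer line. The nucleus of both came from 143B p0 cells, an osteosarcoma line that had been freed of mitochondrial DNA. Per the labels' protocols, actinomycin-D was applied overnight to enucleate the mitochondrial donors, polyethylene glycol was used to fuse them with the nuclear partner, and both cybrids were then selected with BrdU in medium lacking uridine. The labels give MCF10A or MDA-468 as the cell line, although the protocols state the 143B nucleus for every array. How many clones each cybrid comprised is not stated, so the donor of the mitochondria and differences between individual cybrid lines cannot be told apart. Both cybrids had triplicate RNA extractions, and nothing says that these came from separate cultures. Array RNA is an average over cells, in which fewer expressing cells and less RNA per cell cannot be told apart.

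The transcription factor p53 is kept low by MDM2, a ubiquitin ligase that marks it for degradation, and by MDM4, a relative of MDM2 that masks its activation domain. MDM2 is itself switched on by p53 through a promoter inside the gene, which closes a feedback loop. HIPK2 is a nuclear kinase that phosphorylates p53 after severe DNA damage, and PPM1D is a phosphatase that removes damage-induced phosphate groups from p53 and its kinases. GADD45A and PLK2 are known p53 targets, and PLK2 and PLK3 belong to the polo-like kinases, of which PLK1 drives mitosis. The line 143B is known to carry mutated p53.

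Replicates 2 and 3 of each cybrid were near duplicates. Among probe sets of a log2 level above 8, the SD of their differences was 0.08 (10A/143B) and 0.09 (468/143B). Against replicate 1 it was 0.29 in 10A/143B and 0.26 to 0.27 in 468/143B. They were averaged before the fit, which left 2 samples per group, and intensities of all 6 arrays are given below in the order of replicates 1, 2 and 3. The p-values measure only the spread between these samples, which may be technical. Median intensities were 21.7 to 24.4 in 10A/143B and 20.4 to 21.4 in 468/143B. Of the markers of the nuclear line and of other cell types, VIM was bright in both cybrids, with means of 8687 in 10A/143B and 8418 in 468/143B. KRT5, a basal keratin, stood at the lowest value of 1 on 3 of 3 arrays of 10A/143B and on 2 of 3 arrays of 468/143B. The summed intensity of the 3 measured basal epithelial markers ranged over 643 to 878 (10A/143B) and 554 to 665 (468/143B), nearly all of it from LAMB3. For the 5 markers of epithelium in general the range was 68.2 to 114 for 10A/143B, against 80.9 to 97.1 for 468/143B. For the 4 of blood and endothelium it was 169.8 to 188 for 10A/143B, against 117 to 160.3 for 468/143B. Most of it came from PECAM1 (means 154.8 in 10A/143B and 112 in 468/143B), which did not pass, nor did its 4 other probe sets. For the 5 of osteoblasts and mesenchyme the range was 10282 to 11077 for 10A/143B, against 10752 to 12085 for 468/143B, mostly from VIM. Of the 4 marker lists, SPARC passed the threshold and fell, with a log2 difference of -0.64 ± 0.10 (SE). With the replicate number as a block KRT19 (-0.63, adjusted p 0.0332 against 0.0584) and ALPL (-0.87, 0.0455 against 0.196) were lower in 10A/143B as well.

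Among the 7 tested genes, MDM2, HIPK1 and HIPK3 rose in 10A/143B cybrids and GADD45A and PLK3 fell. In limma's fit across all probe sets, 6 of their 30 probe sets were higher and 2 lower at an adjusted p of 0.05, and 22 did not pass. Across the array 15.8% of probe sets passed, 10.7% higher and 5.08% lower. Of the 30 probe sets, 18 lay at or above the array's median level, and all 8 calls were among them. Probe sets passed in 29.9% of cases at or above the median level and in 1.67% below it. Probe sets of 1 gene can read different transcripts, and their positions were not analysed here. With the replicate number as a block, 11 of the 30 passed, against 21.9% of all probe sets (13.9% higher and 7.91% lower). On 10 of the 30 probe sets all 10A/143B arrays were higher and on 3 all were lower, where 23.5% and 16.8% of all probe sets were separated in these directions. Leaving out replicate 1 left that cybrid with a single averaged sample, so that the other cybrid alone gave the spread. In such fits 5 of the 30 passed without 10A/143B replicate 1, against 3.79% of all probe sets, and 5 without 468/143B replicate 1, against 4.67%.

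**Figure D1:**
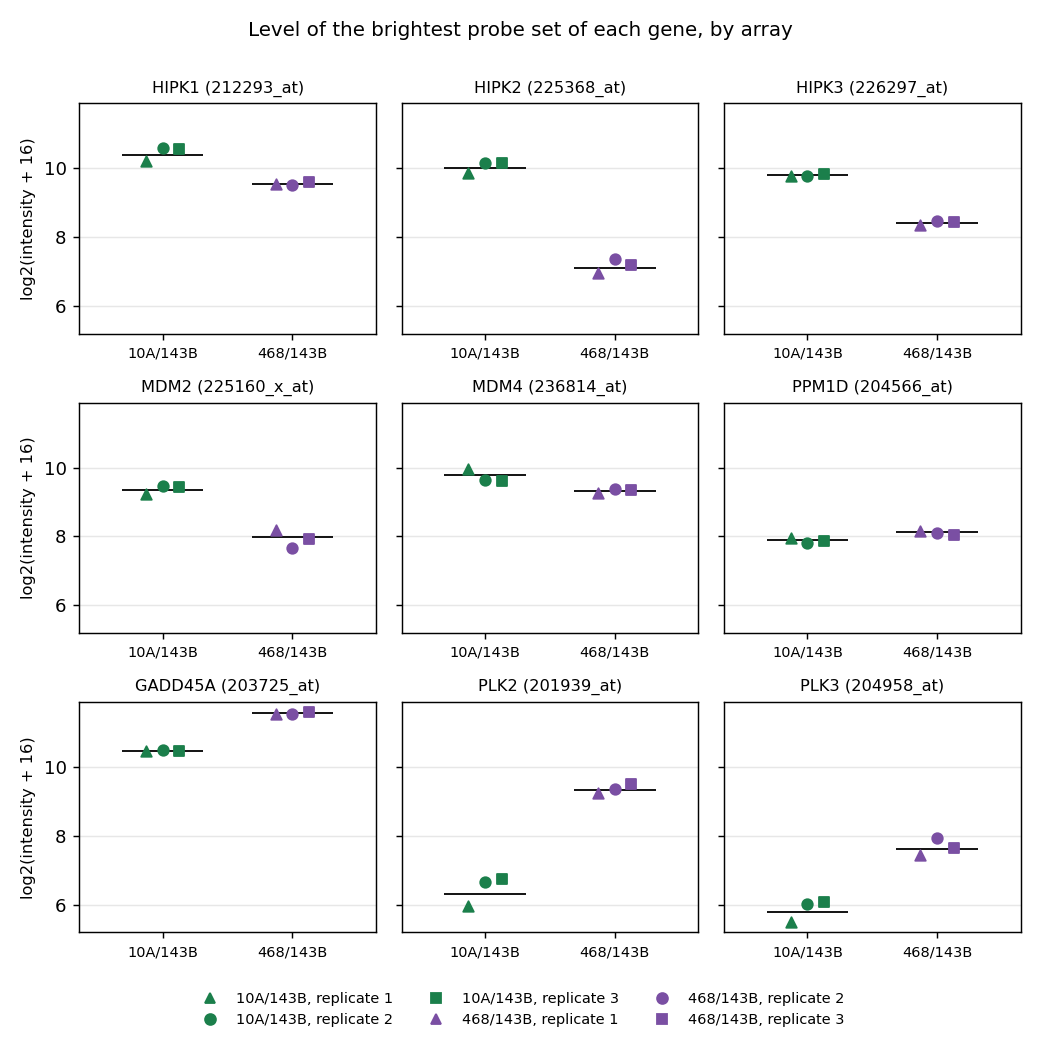
Intensity on a log axis of the brightest probe set of each of the 9 genes, 1 point per array, with 10A/143B left of 468/143B. No gene has a 10A/143B array inside the range of its 468/143B arrays in this probe set. Of all probe sets on the array, 23.5% were separated with 10A/143B higher and 16.8% with it lower. Of the 30 tested probe sets, dim ones included, 10 were all higher and 3 all lower. The gaps are widest for HIPK2 (higher in 10A/143B) and PLK2 (lower in 10A/143B), whose differences chose the family.

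HIPK2 had the largest positive log2 differences of the 9 genes. Its brightest probe set, 225368_at, read 910.2, 1128 and 1128 in 10A/143B, against 107, 149 and 128 in 468/143B. Probe set 225116_at read 929, 962 and 1009.9 in 10A/143B, against 71.5, 105 and 117 in 468/143B. Probe set 225097_at read 560.3, 481 and 474 in 10A/143B, against 48.2, 53.4 and 41.6 in 468/143B. In all 3 probe sets every 10A/143B array stood far above every 468/143B array. The log2 differences were 2.90 ± 0.18, 3.21 ± 0.20 and 3.07 ± 0.18 (SE, 2 averaged samples per group), or 7.48-fold, 9.24-fold and 8.37-fold on the scale of log2(intensity + 16). For 225368_at the difference was 2.91 between the replicates numbered 1 and 2.89 between the means of replicates 2 and 3.

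The other 7 probe sets of HIPK2 did not all run the same way. Probe set 219028_at read 205, 95.0 and 84.4 in 10A/143B and 15.1, 17.4 and 25.3 in 468/143B, a log2 difference of 2.17 ± 0.37. Probe set 225115_at read 272, 176 and 205 in 10A/143B and 89.3, 115 and 86.2 in 468/143B, a difference of 1.14 ± 0.22. The 10A/143B arrays were all higher in both, as they were in 213763_at, where the difference was 1.15 ± 0.32. The remaining 4 had negative differences and lower mean log2 levels, although 240294_at (5.55) was nearly level with 213763_at (5.57). Of these, 224016_at read 9.92, 14.2 and 12.6 in 10A/143B and 62.7, 34.8 and 35.8 in 468/143B, a difference of -1.20 ± 0.33. For 240294_at the difference was -0.53 ± 0.29, and 224066_s_at and 224065_at lay below the array's median level with -0.37 ± 0.24 and -0.42 ± 0.24. In 468/143B alone, 240294_at (mean 40.3) and 224016_at (44.4) were brighter than 213763_at (17.2) and 219028_at (19.3). Altogether the 10A/143B arrays were all higher in 6 of the 10 probe sets and all lower in 3, and they overlapped the 468/143B arrays in 224065_at. Nothing is read from this count, since these values chose the gene.

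**Figure D2:**
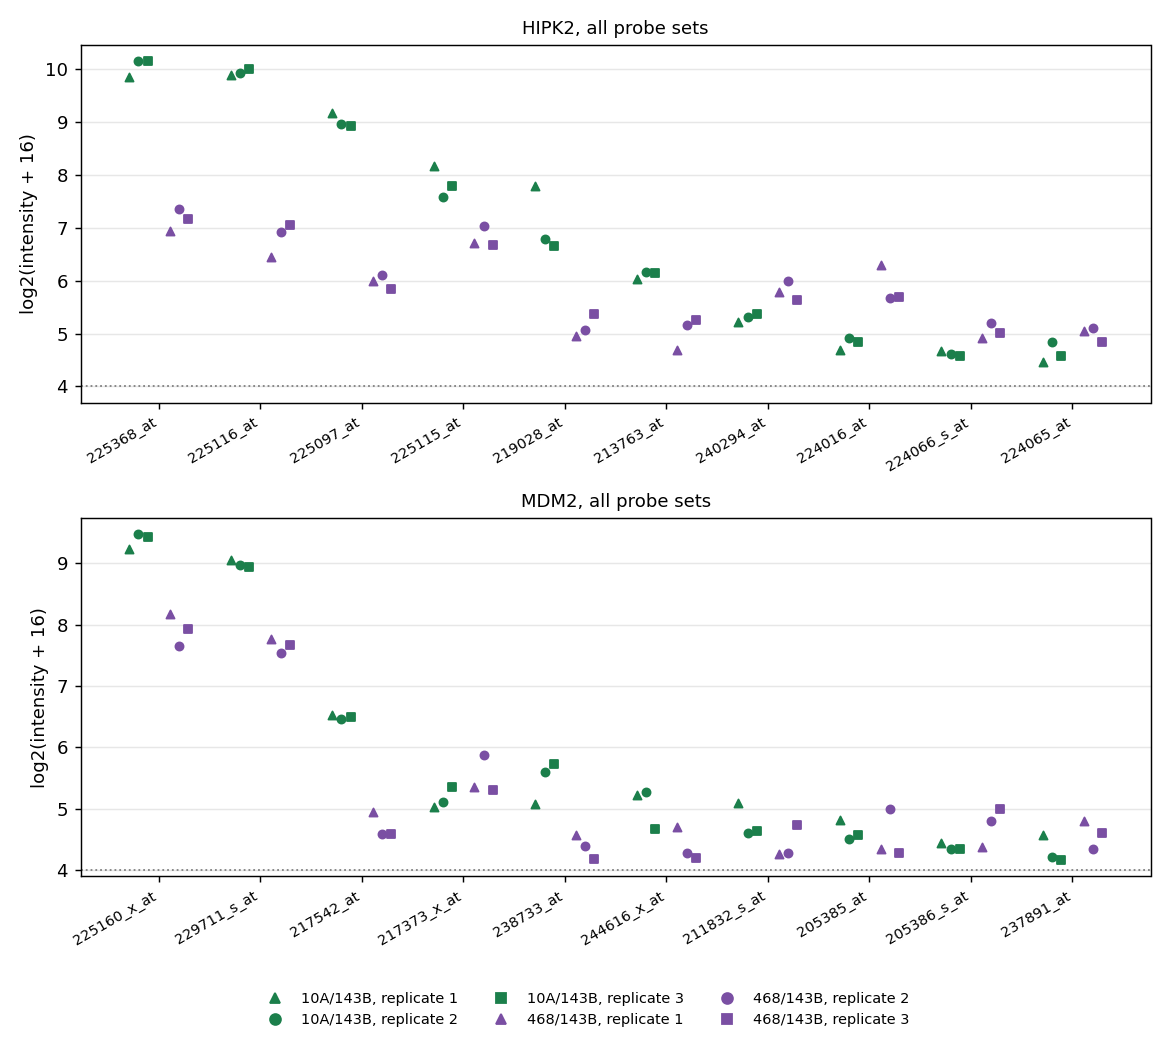
Log2(intensity + 16) of every probe set of HIPK2 and MDM2 on each array, with 10A/143B left of 468/143B and the dotted line at 4 marking an intensity of 0. HIPK2 has 6 probe sets with all 10A/143B arrays higher and 3 with all of them lower, and its values chose the gene. Of all probe sets on the array, 23.5% and 16.8% were separated in these directions. MDM2's 3 brightest probe sets are higher in 10A/143B.

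HIPK3, a cytoplasmic and nuclear relative of HIPK2, rose 2.65-fold by its bright probe set. Probe set 226297_at read 867, 867 and 904 in 10A/143B, against 311, 335 and 329 in 468/143B. The groups were far apart relative to their spread, with a log2 difference of 1.40 ± 0.13 and a limma adjusted p of 0.0011. The other 3 probe sets of HIPK3 were dim, with differences between -0.20 and 0.23, overlapping arrays and adjusted p-values from 0.470 to 0.852.

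HIPK1, the third of these kinases, rose in both of its bright probe sets. Probe set 212293_at read 1176, 1520.2 and 1479 in 10A/143B, against 724, 714 and 765 in 468/143B. Probe set 212291_at read 826, 765 and 815 in 10A/143B, against 284, 471 and 458 in 468/143B. Neither probe set had overlapping groups, and the log2 differences were 0.85 ± 0.14 and 1.12 ± 0.22, or 1.80-fold and 2.17-fold, with limma adjusted p-values of 0.0069 and 0.0121. Probe set 1552516_a_at was also higher on every 10A/143B array, at 0.49 ± 0.20, but did not pass with an adjusted p of 0.163. The fourth, 1552515_at, lay near the bottom of the scale and had a difference of -0.00 ± 0.15. In the fits with a single averaged sample in 1 cybrid, 212291_at did not pass, at 1.09 without 10A/143B replicate 1 and 0.78 without 468/143B replicate 1. The difference of 212293_at was 0.83 without 468/143B replicate 1 and did not pass either.

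MDM2 rose in the 3 brightest of its 10 probe sets. Probe set 225160_x_at read 588, 695 and 676 in 10A/143B, against 272, 185 and 228 in 468/143B. Probe set 229711_s_at read 516, 488 and 474 in 10A/143B, against 202, 169 and 187 in 468/143B. Both showed every 10A/143B array above every 468/143B array, with log2 differences of 1.37 ± 0.18 (2.58-fold, limma adjusted p 0.0027) and 1.32 ± 0.15 (2.50-fold, 0.0020). Probe set 217542_at read 76.6, 72.5 and 74.0 in 10A/143B and 14.6, 7.94 and 8.06 in 468/143B, a difference of 1.75 ± 0.30 with an adjusted p of 0.0074. The endings _x_at and _s_at mark probe sets whose probes can match related or several transcripts, whereas 217542_at carries neither. Since 217542_at was dim in 468/143B, its difference depended on the offset and was 2.68 with an offset of 1 and 0.88 with 64, past the threshold in both. In the fits without replicate 1, which left that cybrid with a single averaged sample, its difference was 1.72 (without that of 10A/143B) and 1.92 (without that of 468/143B), and neither passed.

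The remaining 7 probe sets of MDM2 did not pass in the fit of averaged samples. In the dim 238733_at the arrays read 17.8, 32.2 and 37.0 in 10A/143B and 7.78, 4.99 and 1.99 in 468/143B. That difference, 0.94 ± 0.30, had a limma adjusted p of 0.0752, which became 0.0421 with the replicate number as a block. The differences of the other 6 ran from -0.34 to 0.63, and the 2 groups of arrays overlapped in all of them.

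The sequence around an inner start of MDM2 is shown because its inner promoter is the textbook site of p53's action on this gene. It is given with the sequence around the start of PLK2, which moved the opposite way to MDM2. Both are windows of RefSeq genes on GRCh38.p14, reaching from 250 bases before an annotated start to 50 bases after it. For MDM2 the window is chr12:68808767-68809066 on the plus strand, with capitals marking a match to the p53 binding site. The MDM2 gene begins at 68808172, so this window lies inside the gene. For PLK2 it is chr5:58460037-58460336 on the minus strand, with capitals marking the motif TGACGT.
MDM2: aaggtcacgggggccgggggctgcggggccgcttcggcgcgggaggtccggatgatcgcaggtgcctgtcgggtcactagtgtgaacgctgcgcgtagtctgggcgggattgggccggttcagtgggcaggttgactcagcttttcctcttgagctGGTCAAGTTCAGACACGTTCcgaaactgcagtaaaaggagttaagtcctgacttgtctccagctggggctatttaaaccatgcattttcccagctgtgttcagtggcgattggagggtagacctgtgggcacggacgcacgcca
PLK2: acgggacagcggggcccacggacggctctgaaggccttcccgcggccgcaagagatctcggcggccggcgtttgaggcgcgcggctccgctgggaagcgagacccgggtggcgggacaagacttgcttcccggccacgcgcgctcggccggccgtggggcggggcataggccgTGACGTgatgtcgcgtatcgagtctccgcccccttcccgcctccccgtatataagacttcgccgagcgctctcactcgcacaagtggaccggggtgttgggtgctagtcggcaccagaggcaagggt
The p53 site was searched for on both strands as the consensus of its 2 adjoining decamers, with at most 2 mismatches, and it was present in 0.649% of 35116 windows of this length. The match of MDM2 began 94 bases before the inner start of the window shown and lay in another, overlapping window as well. Windows were found for 7 of the 9 genes, 14 in all. None was available for HIPK2 and GADD45A, so these were not searched. Among the 14 windows the p53 site was met in those of MDM2 only. TGACGT, the core of the cyclic AMP response element, was present in 7.98% of all windows and in windows of HIPK1, PLK2 and PPM1D. GGGCGG, which can lie next to or overlap the other motifs, was present in 45.0% of all windows and in those of HIPK1, HIPK3, MDM2, PLK2, PLK3 and PPM1D. The match is a description of the letters and not a measured binding site.

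MDM4 was higher in 10A/143B cybrids in its 2 brightest probe sets without passing the threshold. Probe set 236814_at read 976, 781 and 765 in 10A/143B, against 596, 644 and 635 in 468/143B. Probe set 225740_x_at read 639, 855 and 867 in 10A/143B, against 474, 545 and 572 in 468/143B. The groups did not overlap in either, and the log2 differences were 0.48 ± 0.15 and 0.51 ± 0.17 with limma adjusted p-values of 0.0671 and 0.0932. With the replicate number as a block these became 0.0275 and 0.0131, past the threshold. The other 4 probe sets of MDM4 had overlapping arrays and differences between -0.16 and 0.32.

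PPM1D, the phosphatase of this set, did not pass. Probe set 204566_at read 232, 209 and 218 in 10A/143B, against 271, 259.6 and 249 in 468/143B. Every 10A/143B array lay below every 468/143B array, by a log2 difference of -0.22 ± 0.16 with a limma adjusted p of 0.444. Its other probe set, 230330_at, read 19.2 to 21.7 in 10A/143B, overlapping the 18.4 to 21.6 of 468/143B.

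**Figure D3:**
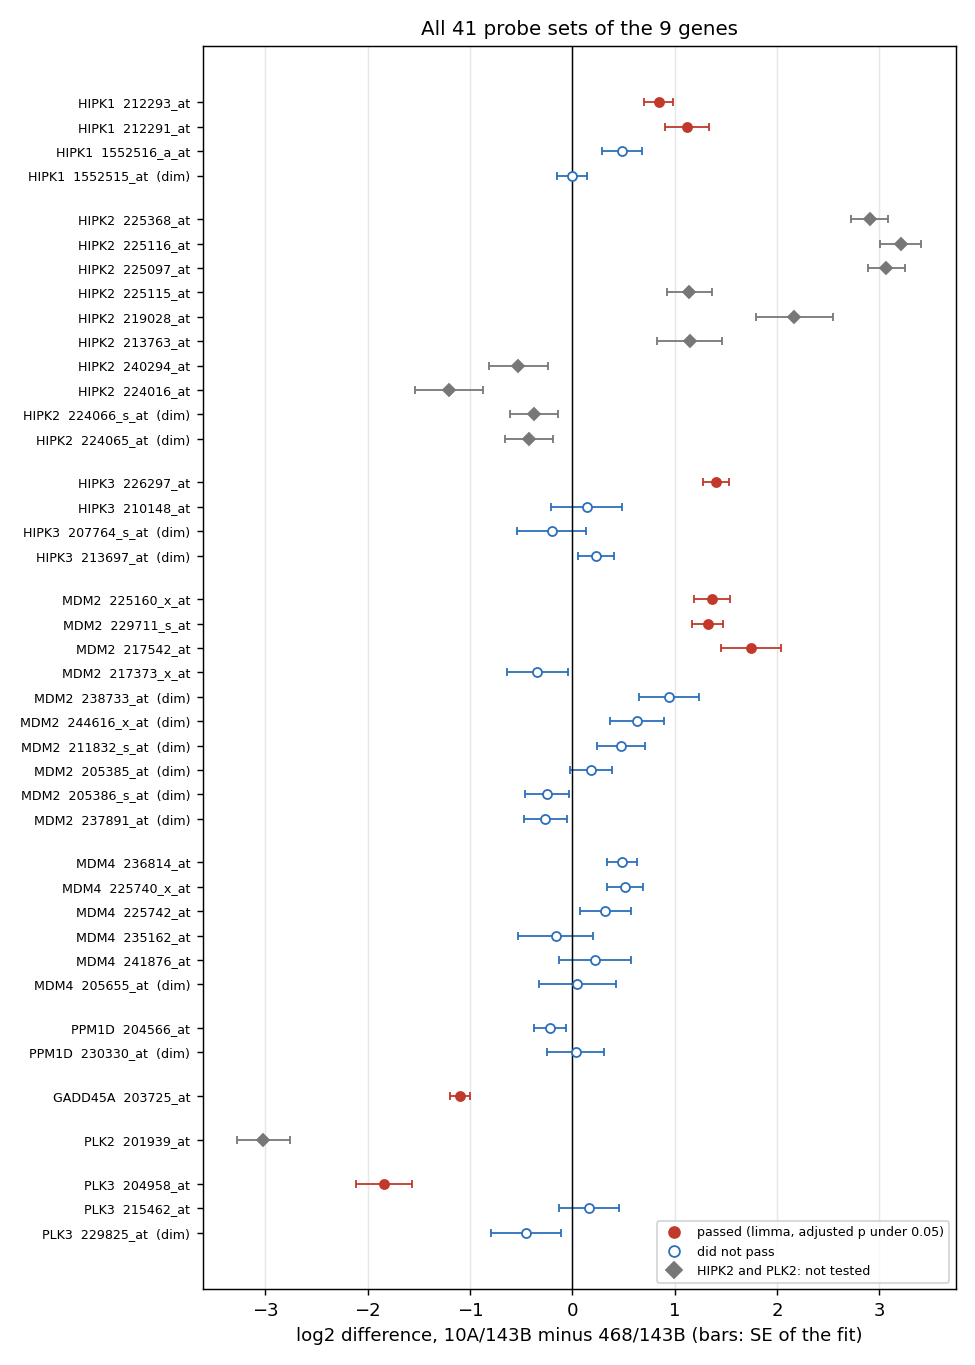
Log2 difference, 10A/143B minus 468/143B, of each of the 41 probe sets with its SE, grouped by gene and set apart by whether it passed the test. HIPK2 and PLK2 were not tested. HIPK1, HIPK3 and MDM2 have probe sets that passed on the positive side, and GADD45A and PLK3 have 1 each on the negative side.

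GADD45A, which binds cell cycle proteins and the kinase MAP3K4 under stress, fell 2.14-fold in 10A/143B cybrids. Its single probe set, 203725_at, read 1389, 1418 and 1409 in 10A/143B, against 2998, 2998 and 3061 in 468/143B. The arrays of each cybrid lay close together and the groups did not overlap, with a log2 difference of -1.10 ± 0.10 and a limma adjusted p of 0.0010.

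PLK2, a kinase of centriole duplication and of the early response to stress, had the largest negative difference of the 9 genes. Its single probe set, 201939_at, read 45.6, 83.9 and 91.8 in 10A/143B, against 588, 648 and 709 in 468/143B. Every 10A/143B array lay far below every 468/143B array, and replicate 1 was the lowest of its group in both cybrids. The log2 difference was -3.02 ± 0.26, or 8.10-fold lower in 10A/143B. It was -3.29 between the replicates numbered 1 and -2.74 between the means of replicates 2 and 3.

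PLK3, a stress-responsive relative of PLK2, fell 3.58-fold in 10A/143B cybrids by 1 of its 3 probe sets. Probe set 204958_at read 29.0, 49.2 and 51.6 in 10A/143B, against 156, 229 and 185 in 468/143B. The groups were separate, with a log2 difference of -1.84 ± 0.27 and a limma adjusted p of 0.0044. Without 10A/143B replicate 1, which left that cybrid with a single averaged sample, the difference was -1.56 and did not pass. The arrays of the 2 cybrids overlapped in the other probe sets, of which 229825_at lay below the array's median level. For 215462_at the difference was 0.16 ± 0.30, and for 229825_at it was -0.45 ± 0.34.

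The wider families were counted with 1 probe set per gene, the brightest, in a fit over 19775 genes of which 22.7% passed, 13.8% higher and 8.90% lower. Their median log2 difference was -0.02. Among 28 measured relatives of PLK, GADD45 and the PPM phosphatases, 5 rose and 4 fell, and the median difference was -0.02. GADD45B, the paralogue of GADD45A, read 471, 458 and 465 in 10A/143B, against 2798, 2647 and 2740.1 in 468/143B. This was a fall of 5.72-fold (log2 difference -2.52 ± 0.10, limma adjusted p 9.4e-05), and its other 3 probe sets fell as well. MAP3K4, the kinase activated by GADD45 proteins, rose by 1.51 ± 0.16 (adjusted p 0.00074). PLK4, the master kinase of centriole duplication, rose by 1.37 ± 0.19 (0.0018), whereas PLK1 fell by 0.91 on the log2 scale (SE 0.13, adjusted p 0.0019). PPM1B, a phosphatase of the family of PPM1D, rose by 1.34 ± 0.13 (0.00048), and its 1 other probe set did not pass. The other calls, named after their values were seen, were CDK1 (0.50), the mitotic kinase, and PPM1K (0.66), a mitochondrial phosphatase, which rose, and PPM1J (-1.33) and GADD45GIP1 (-0.62), which fell. None of the 3 other probe sets of CDK1, the 4 of PPM1K and the 2 of GADD45GIP1 passed. With the replicate number as a block NPM1 (0.30, adjusted p 0.0152), PPM1G (-0.34, 0.0273) and ILKAP (-0.56, 0.0027) passed as well.

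Of 25 measured relatives and partners of the HIPK kinases, 3 rose and 4 fell, where 13.8% of all genes rose and 8.90% fell. The median log2 difference of the 25 was -0.08. With the replicate number as a block, 4 rose and 7 fell, where 31.6% of all genes passed, 17.8% higher and 13.8% lower. With all 6 arrays as separate samples, 6 rose and 8 fell, where 19.9% of all genes rose and 15.7% fell. Quantile normalization gave 1 that rose and 6 that fell, and median centring 2 and 5. The median log2 difference over all genes was -0.02 as deposited, -0.08 after quantile normalization and -0.11 after median centring. Shares of all genes that passed in these 2 settings are not given here, so nothing is read from their counts. Without 468/143B replicate 1, which left that cybrid with a single averaged sample, 3 of the 25 passed, where 9.58% of all genes did. The genes that passed only with the block were CTBP1 (0.38, adjusted p 0.0254), DYRK1B (-0.69, 0.0427), HMGA1 (-0.32, 0.0114) and TCF7L1 (-0.75, 0.0118). WSB1, a ubiquitin ligase subunit that targets HIPK2, read 249, 324 and 300.2 in 10A/143B, against 136, 104 and 108 in 468/143B. It rose by 1.11 ± 0.20 (limma adjusted p 0.0057), and 2 of its 4 other probe sets rose as well. SIAH2, a ligase of the family that degrades HIPK2, read 218, 276 and 274 in 10A/143B, against 413, 471 and 449 in 468/143B. It fell, with a log2 difference of -0.79 ± 0.16 (adjusted p 0.0088). PML, the organiser of the nuclear bodies in which HIPK2 meets p53, had a difference of -1.16 ± 0.29 (0.0236) in its brightest probe set, and none of its 9 other probe sets passed. ZBTB4, a repressor that HIPK2 marks for degradation, rose by 0.86 ± 0.23 (0.0315), and its 1 other probe set did not pass. HIPK4, the remaining paralogue, did not pass, at -0.43 ± 0.31 (0.409). Named after their values were seen, the other calls were SMAD1 (0.68), a signal transducer of bone morphogenetic proteins, which rose, and the kinases DYRK4 (-0.74) and CLK1 (-0.70), which fell.

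**Figure D4:**
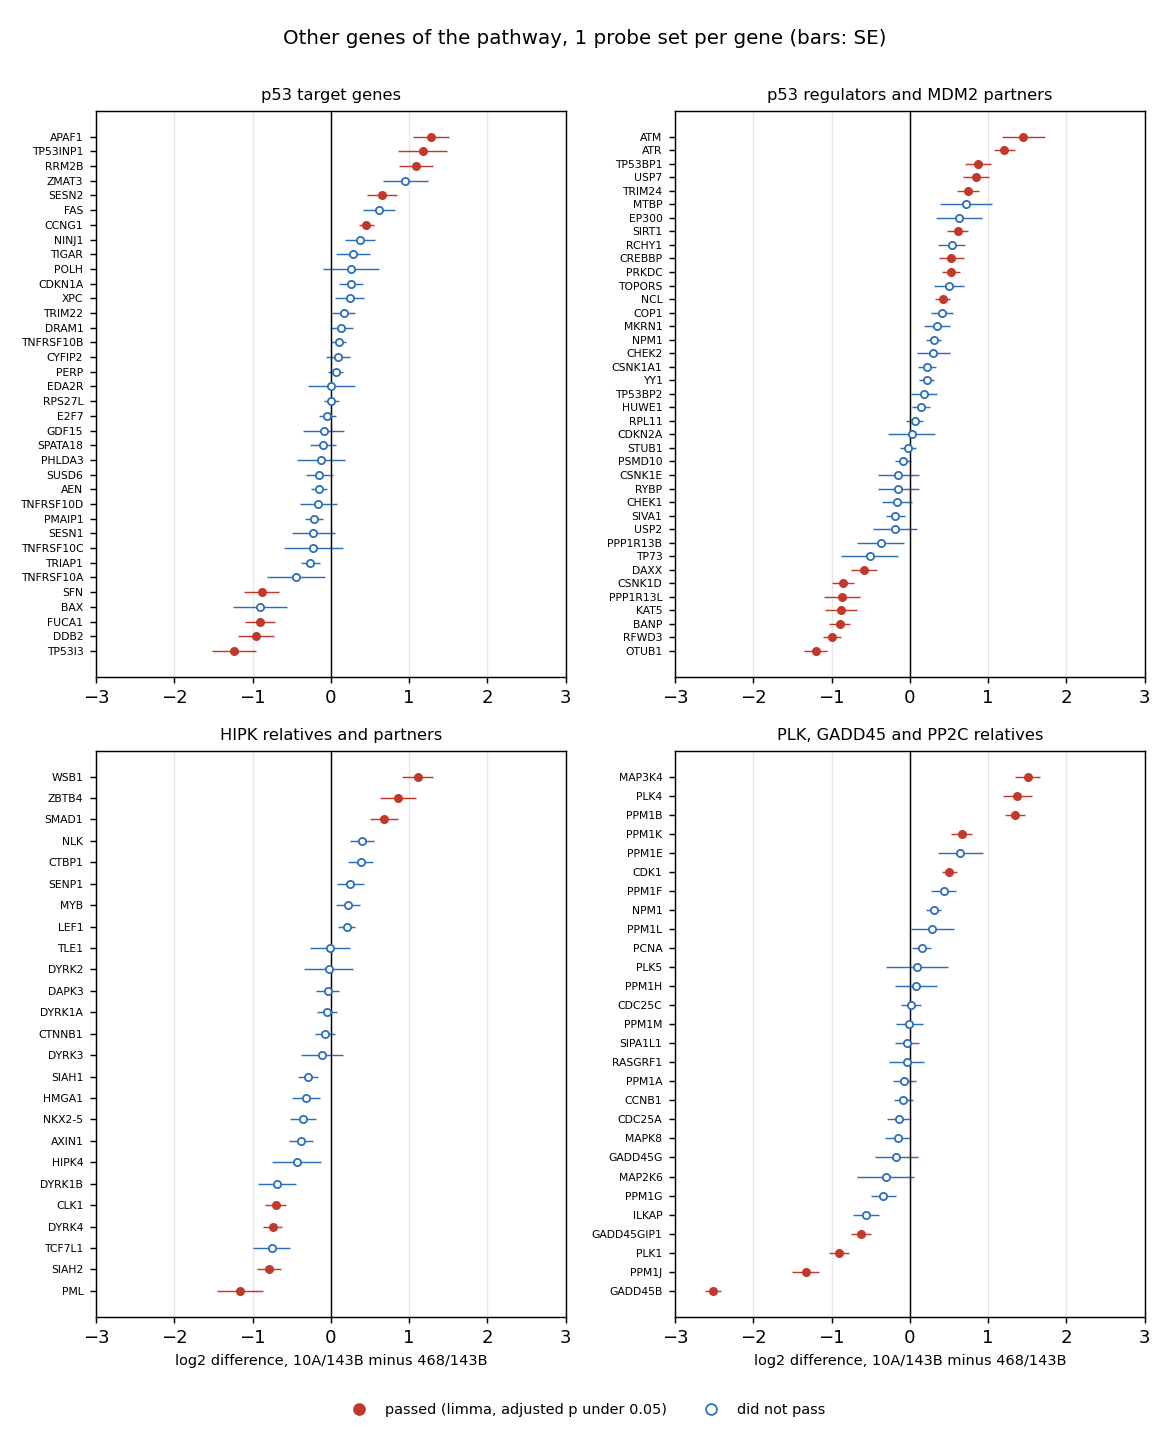
Log2 difference, 10A/143B minus 468/143B, of every measured gene of the 4 gene lists, 1 probe set per gene, with calls of the limma fit set apart. Each list holds genes that rose and genes that fell, 9 and 7 among the 39 p53 regulators and 5 and 4 among the 36 p53 targets. Of all genes, 13.8% rose and 8.90% fell.

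Of 39 measured regulators of p53 and partners of MDM2, 9 rose and 7 fell, where 13.8% of all genes rose and 8.90% fell. The median log2 difference of the 39 was 0.18. The split differed with the choice of samples and probe sets. With the replicate number as a block 14 rose and 7 fell, where 17.8% of all genes rose and 13.8% fell. With all 6 arrays as separate samples it was 17 and 7, where 19.9% of all genes rose and 15.7% fell. Without the _x_at and _s_at probe sets only 28 of the 39 genes were left, of which 7 rose and 1 fell. The share over all genes in that setting is not given here. In the fits with a single averaged sample in 1 cybrid, 10 passed without 10A/143B replicate 1 and 7 without 468/143B replicate 1, where 15.0% and 9.58% of all genes passed. The damage kinases ATM and ATR both rose. ATR read 832, 929 and 917 in 10A/143B, against 338, 416 and 399 in 468/143B, a difference of 1.20 ± 0.13 (limma adjusted p 0.00084). For ATM it was 1.45 ± 0.28 (0.0075), with 2 of its 5 other probe sets called in the same direction. OTUB1, a deubiquitinase that stabilises p53, fell with a log2 difference of -1.20 ± 0.15 (0.0012), and neither of its other 2 probe sets passed. The genes that passed only with the block were NPM1 (adjusted p 0.0152), RCHY1 (0.0092), COP1 (0.0257), TOPORS (0.0251) and EP300 (0.0486), all with positive differences between 0.30 and 0.62. RFWD3, a ubiquitin ligase that acts on p53 and MDM2, read 402, 347 and 391 in 10A/143B, against 815, 760.1 and 739 in 468/143B. It fell, at -0.99 ± 0.12 (0.0011).

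Of 36 measured p53 target genes, 5 rose and 4 fell, where 13.8% of all genes rose and 8.90% fell. The median log2 difference of the 36 was 0.01. APAF1, the scaffold of the apoptosome, read 151, 179 and 159 in 10A/143B, against 61.0, 59.3 and 45.9 in 468/143B. It rose by 1.28 ± 0.23 (limma adjusted p 0.0061), and neither of its other 2 probe sets passed. RRM2B, a subunit of ribonucleotide reductase that supplies nucleotides for repair and for mitochondrial DNA, rose by 1.09 ± 0.21 (0.0086). TP53INP1 rose by 1.18 ± 0.31 (0.0309). It was dim, at 28.4, 50.2 and 60.1 in 10A/143B, against 9.85, 7.31 and 8.51 in 468/143B. Neither of the other 2 probe sets of TP53INP1 passed. TP53I3, an oxidoreductase-like protein, fell with a difference of -1.23 ± 0.28 (0.0160). CDKN1A, the cell cycle inhibitor p21, averaged an intensity of 660.2 in 10A/143B and 523 in 468/143B and did not pass, at 0.26 ± 0.15 (0.303). The other calls of the list, named after their values were seen, were SESN2 (0.65) and CCNG1 (0.45), which rose, and DDB2 (-0.95), FUCA1 (-0.91) and SFN (-0.88), which fell. The 1 other probe set of SESN2 and that of FUCA1 did not pass, and 1 of the 2 others of SFN was called lower. SESN2 is a stress-induced sestrin, CCNG1 encodes cyclin G1, DDB2 recognises ultraviolet damage, FUCA1 is a lysosomal fucosidase and SFN is a 14-3-3 protein. In the fits with a single averaged sample in 1 cybrid, 5 of the 36 passed without 10A/143B replicate 1, against 15.0% of all genes, and 1 without 468/143B replicate 1, against 9.58%. With the replicate number as a block 3 more passed: ZMAT3 (0.95, blocked adjusted p 0.00059 against 0.0507), whose 4 other probe sets were all called higher, FAS (0.62, 0.0269 against 0.0745) and BAX (-0.90, 0.0299 against 0.107).

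The neighbours and lengths of the genes were compared with their differences, using the RefSeq genes of GRCh38.p14 for order and length only. Among the 20 nearest measured neighbours of HIPK2 on chromosome 7, from TMEM213 to NDUFB2, 7 rose and 1 fell, and the median log2 difference was 0.29, against 0.03 for the genes of the chromosome. Among those of PLK2 on chromosome 5, from IL6ST to ZSWIM6, 4 rose and 2 fell, with a median of 0.07, against 0.05 for the chromosome. For all genes, 13.8% rose and 8.90% fell. Around the other 7 genes, 0 to 8 of 20 neighbours rose, most around HIPK1 (8 rose, 0 fell, median 0.44) and fewest around PLK3 (0 rose, 2 fell, median -0.11). PPM1D, which did not pass itself, had 7 neighbours that rose and 3 that fell. For length, 7746 protein-coding genes of mean log2 level above 7 were sorted into 10 classes of near-equal size. PLK3, at a level of 6.77, was not among them. The median difference was -0.27 in the class of the shortest genes and 0.43 in that of the longest. HIPK2, with a length of 216 kb, fell in class 10 and HIPK3, at 100.4 kb, in class 9, whose median was 0.40. PPM1D, with 66.1 kb, fell in class 8, HIPK1 in class 7, and MDM2 and MDM4 in class 6, with medians of 0.35, 0.19 and 0.09. PLK2, with 6.1 kb, fell in class 2 (median -0.23) and GADD45A, with 3.13 kb, in class 1. The part of gene length in these differences was not tested.

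The genes whose log2 levels over the 6 arrays were most like those of the brightest HIPK2 probe set, among 7912 genes of log2 level above 7, were BLOC1S2, VPS54 and KLHL11, each with a Pearson correlation of 1.00. Their log2 differences were 0.36, 1.60 and 1.10. For PLK2 they were ANAPC15, BRMS1 and TBC1D22A, each with 0.999, and their differences were -0.77, -0.93 and -0.77. The 6 arrays comprise 2 separate groups, so that any gene whose groups lie far apart scores high on this measure, and it is given as a description.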

How the data were processed

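The deposited file holds 1 linear intensity for each probe set on each array. How the authors summarised, background-corrected and scaled the arrays is not stated in the labels or file headers used here. No detection calls were used, and precision is limited by the number of arrays. Source names gave each array's group and replicate number. Replicates 2 and 3 of each cybrid were averaged because they were near duplicates.

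Intensities were used as log2(intensity + 16), so fold changes of dim probe sets are understated. The 2 cybrids were compared by lmFit and eBayes with trend (limma 3.58.1, R 4.3.3), with Benjamini-Hochberg adjustment at 0.05 over 54613 probe sets, and for gene lists over 19775 genes (the brightest probe set of each). The fit was also run on simulated data with known differences. There the noise was alike at every level and independent between the 2 cybrids, so that run does not test a pairing of samples. Symbols came from the platform's probe table, in which 41097 probe sets had 1 symbol, and were updated through RefSeq's table.

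Deviations from the group means correlated by 0.28, 0.23 and 0.22 between same-numbered replicates 1, 2 and 3. Since replicates 2 and 3 were near duplicates, these are not separate values, and they do not settle whether the numbers pair the samples. The main fit takes the samples as unpaired, and blocked values are given where they change a call.

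The genes and lists were chosen with earlier results of these data known. Named were every probe set of the 9 genes, up to 4 called genes with the largest difference per list, and CDKN1A, PLK1, PLK4 and HIPK4. Genes whose call the block changed were named after their values were seen. A further gene of this rule was not analysed here. Alternatives covered all 6 arrays, replicates 2 and 3 only, the block, single arrays left out, offsets, normalization, a level filter, no trend, and the choice of probe set.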

Additional observations from a re-analysis of the deposited data

How the results depend on the processing

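With 2 averaged samples per group, 0 of the 8 called probe sets changed direction under any alternative run. Of their 128 values, 121 kept their call and 7 lost it, 6 of these in fits without replicate 1, which leave 1 cybrid with a single averaged sample that is assumed to vary like the other cybrid: HIPK1 212291_at and MDM2 217542_at without replicate 1 of either cybrid, HIPK1 212291_at also without the trend, HIPK1 212293_at without 468/143B replicate 1, and PLK3 204958_at without 10A/143B replicate 1. Of the 30 tested probe sets of the 7 genes, 8 passed, against 16 with replicates 2 and 3 only, 13 with 6 arrays and replicate block, 11 with the replicate block alone and 5 to 8 with single arrays left out. The calls across the array moved as well, with 8609 probe sets in the fit of averaged samples, 11933 with the block and 15293 with 6 arrays as separate samples. The fit with replicates 2 and 3 only takes near duplicates as separate samples, so its p-values measure the spread between near duplicates. For that fit and the one with 6 arrays and replicate block, shares over all features are not given here. Nothing about the genes or lists is read from the counts in these 2 fits. Among p53 targets 9 passed, against 19 with replicates 2 and 3 only and 15 with 6 arrays and replicate block. With replicate 2 or 3 of 1 cybrid left out 8 to 10 passed, where 21.4% to 22.1% of all genes did. Among p53 regulators 16 passed, against 32 with replicates 2 and 3 only and 26 with 6 arrays and replicate block. With replicate 2 or 3 of 1 cybrid left out 14 to 16 passed, where 21.4% to 22.1% of all genes did. Without the trend it was 8, and without the _x_at and _s_at probe sets it was 8 of the 28 genes left. Among HIPK relatives 7 passed, against 17 with replicates 2 and 3 only, 15 with 6 arrays and replicate block, 14 with 6 arrays and 11 with the replicate block. With replicate 2 or 3 of 1 cybrid left out 7 passed each time, where 21.4% to 22.1% of all genes did. Without the trend it was 4, and without the _x_at and _s_at probe sets it was 4 of the 18 genes left. Among PLK, GADD45 and PPM relatives 9 passed, against 19 with replicates 2 and 3 only and 14 with 6 arrays and replicate block. With replicate 2 or 3 of 1 cybrid left out 9 to 10 passed, where 21.4% to 22.1% of all genes did. With the replicate block 12 p53 targets, 21 p53 regulators and 12 PLK, GADD45 and PPM relatives passed, where 31.6% of all genes did. Of the 30 tested probe sets the block changed the calls of MDM2 238733_at, MDM4 236814_at and MDM4 225740_x_at and no others. Shares over all genes without the trend, and without the _x_at and _s_at probe sets, are not given here. Nothing about the lists is read from the counts in those fits. Fits without replicate 1 have fewer samples by construction, and the cause of the other moves was not tested.

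Some differences that did not pass turned sign. With replicates 2 and 3 only they were -0.10 for MDM2 205385_at, 0.31 for MDM4 235162_at, 0.18 for HIPK1 1552515_at, 0.13 for HIPK3 207764_s_at and 0.093 for PLK3 229825_at. HIPK1 1552515_at was 0.056 with 6 arrays, with or without replicate block, 0.019 with an offset of 1 and 0.0030 after quantile normalization. MDM4 205655_at was -0.050 after quantile normalization and -0.040 after median centring, and PPM1D 230330_at was -0.042 and -0.054 in that order. With arrays left out, MDM4 235162_at ran from -0.19 to 0.34, MDM4 241876_at from -0.068 to 0.50, MDM4 205655_at from -0.0057 to 0.47, HIPK1 1552515_at from -0.079 to 0.11 and HIPK3 207764_s_at from -0.34 to 0.19.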
